A study of Mus musculus with 6 samples.

Results

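The genes described here are the 7 that form and run the MHC class II presentation route in the mouse: Cd74, H2-Aa, H2-Ab1, H2-Eb1, H2-DMa, H2-DMb1 and Ciita. They were chosen by symbol, and all 7 were among the 24346 gene symbols listed in each library. Their transcripts were measured by RNA sequencing in 6 libraries of sorted hepatic stellate cells, liver pericytes that store vitamin A, from wild type C57BL/6 mice aged 35 weeks. The livers came from 3 sources, namely tumour region and non-tumour region of livers from mice on a high-fat diet, and livers from mice on a normal diet. From each source cells were isolated by perfusion at 37 and at 6 degrees, and the study asked what the warm step does to the transcriptome. Each of the 6 combinations had 1 library, and nothing in the labels says whether libraries came from separate animals or from pools. The p-values below therefore measure only the spread between these libraries around additive effects of source and temperature, and that spread may be technical. Per the labels' protocols, sorted cells lacked CD31 and CD45.2, surface markers of endothelial cells and of blood-derived cells, and carried CD49a.

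MHC class II molecules present peptides from endocytosed protein to CD4 T cells. An alpha and a beta chain (I-A, from H2-Aa and H2-Ab1, and I-E, whose beta chain comes from H2-Eb1) assemble on the invariant chain, the product of Cd74. Proteases of the endosome cut the invariant chain down, and H2-DM, a pair of H2-DMa and H2-DMb1 chains, exchanges its last fragment for a peptide. Transcription of the whole set depends on Ciita, a co-activator that is itself controlled by cell type and by interferon gamma and that docks on a shared promoter module. In liver, Kupffer cells, dendritic cells and B cells are the well known class II positive cells, sinusoidal endothelial cells carry some, and stellate cells have been described as able to carry it.

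The promoter module is shown here because the 7 genes had closely similar orders of libraries. It is known to hold an S-X-Y arrangement read by RFX, CREB and NF-Y, and NF-Y binds the letters ATTGG. RefSeq promoter windows (GRCm38.p6, 250 bases before to 50 after a start) were present for H2-Aa, H2-Eb1, H2-DMb1 and H2-DMa among the members. In the stretches below, 5′ to 3′ on the strand of the gene, capitals mark AAC of the X box region and ATTGG of the Y box.
H2-Aa, chr17:34287861-34287914, minus strand: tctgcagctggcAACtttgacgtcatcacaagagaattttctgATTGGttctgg
H2-Eb1, chr17:34305766-34305818, plus strand: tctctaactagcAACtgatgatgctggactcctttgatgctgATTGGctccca
H2-DMb1, chr17:34153087-34153140, plus strand: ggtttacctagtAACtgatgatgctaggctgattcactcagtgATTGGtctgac
H2-DMb2, chr17:34145116-34145169, plus strand: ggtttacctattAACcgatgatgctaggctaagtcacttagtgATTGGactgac
The pair of motifs lay 28 bases apart in H2-Aa, H2-DMb1 and H2-DMb2 and 27 bases apart in H2-Eb1, with ATTGG ending 44, 57, 86 and 55 bases before the start. The same pair at 27 or 28 bases, on either strand, was in 427 of 32851 promoter windows (1.3%), a pattern written down after these sequences had been seen. ATTGG alone, on either strand, was in 37.4% of the windows. H2-Oa and H2-Eb2, of the same locus, also held the pair, whereas the window of H2-Ob and both windows of H2-DMa did not have these letters at this distance. The H2-DMb1 and H2-DMb2 stretches lie inside the genes as GENCODE draws them, with starts further upstream than those of RefSeq. A match of letters is a description and shows no binding. Cd74, H2-Ab1 and Ciita had no entry.

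Levels are in FPKM as the authors deposited them, that is, fragments scaled by transcript length and by library size, and can thus be set side by side between genes. The libraries held an estimated 1.78e+07 to 2.51e+07 fragments, so that a single fragment per kilobase amounted to 0.0399 to 0.0561 FPKM. In each library 11056 to 11673 genes were at 1 FPKM or more. The 11 stellate cell markers summed to 32712 and 24175 FPKM in the tumour libraries of 37 and 6 degrees, 37626 and 26293 in the non-tumour libraries and 26059 and 23191 in the normal diet libraries. Lrat, the enzyme that stores vitamin A as retinyl ester, was between 335 and 538 FPKM in all 6 libraries, so a defining marker of the labelled cell type was abundant throughout. Hepatocyte markers summed to 21.5 to 208 FPKM, T and NK cell markers to 1.91 to 11.5, mesothelial markers to 0.144 to 4.57 and bile duct cell markers to 0.213 to 1.80 FPKM.

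Cd74 (GRCm38 chromosome 18, 60803848 to 60812652), whose product is the chaperone of all class II dimers, was the most abundant of the 7 in every library. It stood at 621 FPKM at 37 degrees and 1205 FPKM at 6 degrees in the tumour region, at 14.3 and 230 FPKM in the non-tumour region, and at 15.2 and 113 FPKM in normal diet livers. The highest of these values was 84.5 times the lowest. Ranked among all symbols, Cd74 was number 44 in the tumour library of 6 degrees and number 4825 in the non-tumour library of 37 degrees. Both tumour libraries thus lay above all 4 others, and within each source the library of 37 degrees lay below that of 6 degrees.

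The genes of the classical dimers followed the same order. H2-Ab1, the I-A beta chain (GRCm38 chromosome 17, 34257689 to 34269419), was at 329 and 730 FPKM in the tumour libraries of 37 and 6 degrees, 10.3 and 135 FPKM in the non-tumour ones and 9.31 and 59.0 FPKM in the normal diet ones. H2-Aa, the I-A alpha chain (34282744 to 34287823, minus strand), was at 175 and 372 FPKM in tumour, 6.09 and 67.6 FPKM in non-tumour and 4.51 and 29.5 FPKM in normal diet libraries. H2-Eb1, the I-E beta chain (34305867 to 34316674), was at 91.4 and 179 FPKM in tumour, 2.08 and 33.1 FPKM in non-tumour and 2.17 and 13.6 FPKM in normal diet libraries. All 3 genes had their highest value in the tumour library of 6 degrees and their 2 lowest in the non-tumour and normal diet libraries of 37 degrees.

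The proportions between these chains moved far less than their levels. H2-Ab1 was 1.69 to 2.06 times H2-Aa over the 6 libraries, although each of the genes spanned 78.4 and 82.5 times from its lowest to its highest library. Cd74 was 1.38 to 1.91 times H2-Ab1, and H2-Ab1 was 3.61 to 4.95 times H2-Eb1. Cd74 made up 41.5 to 50.2% of the summed FPKM of the 7 genes, H2-Ab1 26.2 to 30.0%, H2-Aa 13.1 to 17.7% and H2-Eb1 6.05 to 7.33%. C57BL/6 mice lack a working alpha chain gene for I-E, and its symbol here, H2-Ea-ps, was listed at 0 in all 6 libraries beside the H2-Eb1 values above.

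The peptide exchange genes were lower and less even. H2-DMa (34119541 to 34139101) was at 12.6 and 32.1 FPKM in the tumour libraries of 37 and 6 degrees, 1.32 and 7.18 FPKM in the non-tumour ones and 0.869 and 4.35 FPKM in the normal diet ones. H2-DMb1 (34153072 to 34160230) was at 15.5 and 48.8 FPKM in tumour, 0.248 and 12.3 FPKM in non-tumour and 1.39 and 5.36 FPKM in normal diet libraries. H2-DMb1 was 1.23 to 1.71 times H2-DMa in 5 libraries and 0.187 times in the non-tumour library of 37 degrees. That low value stands for at most 5.66 fragments. H2-DMb2, a near-identical neighbour (34143307 to 34151555), was at 0.758 and 2.33 FPKM in tumour, 0 and 0.968 FPKM in non-tumour and 0.163 and 0.337 FPKM in normal diet libraries, and how reads were divided between the copies is uncertain. H2-DMa overlaps Brd2 and other genes on the opposite strand, and H2-Eb1 overlaps Gm20513 there. Use of strand is not given in the sources used here, so reads of the overlapping genes may be part of these values.

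Ciita (GRCm38 chromosome 16, 10480059 to 10528418), the co-activator, was the least abundant. It was at 0.342 and 1.41 FPKM in the tumour libraries of 37 and 6 degrees, 0.0305 and 0.336 FPKM in the non-tumour ones and 0.0281 and 0.241 FPKM in the normal diet ones. These values stand for at most 35.7 and 173, 3.25 and 41.2, and 3.43 and 35.4 fragments, counted on its longest transcript. The order of its libraries matched that of H2-Aa, H2-Ab1 and H2-DMa. Its lowest places, the non-tumour and normal diet libraries of 37 degrees, rest on at most 3.25 and 3.43 fragments and cannot be told apart. Ciita had a mean of 0.397 FPKM, below the 1 FPKM needed for the test, and it overlaps Dexi on the opposite strand.

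**Figure D1:**
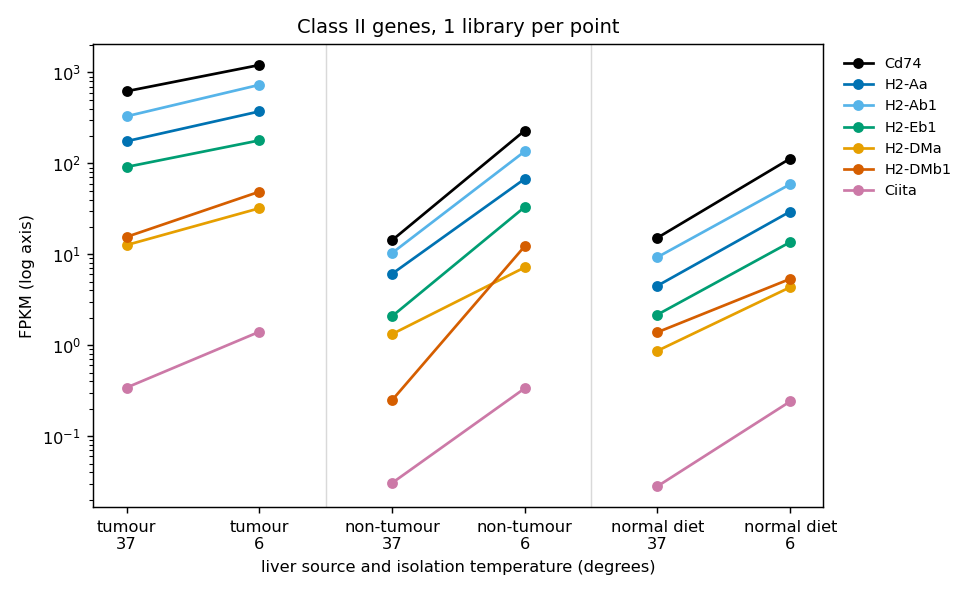
FPKM on a log axis of the 7 class II genes in each library, by liver source and isolation temperature in degrees, 1 library per point. Lines join the 37 and 6 degree libraries of a source; every line is lower at 37 degrees, and both tumour libraries lie above the others for all 7 genes.

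Over the 7 genes the order of the top 4 libraries was the same: tumour at 6, tumour at 37, non-tumour at 6 and normal diet at 6 degrees. The last places were taken by the non-tumour and normal diet libraries of 37 degrees, with the non-tumour library higher for H2-Aa, H2-Ab1, H2-DMa and Ciita and the normal diet library higher for Cd74, H2-Eb1 and H2-DMb1. With 1 library per group, a single level has no spread of its own, so neighbours in this order cannot be tested against each other. The rest of the comparisons used limma on log2(FPKM + 1) over all 11558 genes whose mean reached 1 FPKM. Fold changes on that scale understate the change of low genes, and an adjusted p under 0.05 was counted as passing.

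Isolation at 37 degrees gave lower class II transcript levels than isolation at 6 degrees. All 7 genes were lower at 37 degrees in each of the 3 pairs of libraries. In FPKM, their sum was 2.06 times lower at 37 degrees in the tumour pair (1246 against 2569), 14.1 times in the non-tumour pair (34.4 against 486) and 6.72 times in the normal diet pair (33.5 against 225). The median difference over the 7 genes was -1.08, -3.41 and -2.20 on the log2(FPKM + 1) scale in these pairs. Whether the drop differs between sources was not tested, since 1 library per group leaves no error for it. In bulk RNA, fewer cells of a type and less RNA per cell cannot be told apart.

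In the model over the 3 pairs, 4 of the 6 genes tested fell at 37 degrees (limma, Benjamini-Hochberg), where 4.62% of all genes tested passed in that direction. H2-DMa fell by 1.54 ± 0.14 (SE, log2 scale, adjusted p = 0.0103). H2-Aa fell by 2.28 ± 0.40 (adjusted p = 0.0408), H2-Ab1 by 2.43 ± 0.44 (adjusted p = 0.0441) and H2-DMb1 by 2.14 ± 0.40 (adjusted p = 0.0497). Cd74, with the largest estimate of the 6, was at -2.56 ± 0.53 and did not pass (limma adjusted p = 0.0646), nor did H2-Eb1 at -2.21 ± 0.45 (adjusted p = 0.0614). The median of the 6 was -2.24, against 0.01 over all genes tested. The count was 5 without either tumour library, 1 without the non-tumour library of 37 degrees or either normal diet library, and 0 without the non-tumour library of 6 degrees. It was 1 with a pseudocount of 0.1, a mean of at least 5 FPKM or no intensity trend, and 0 with no filter on low values or no term for source.

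**Figure D2:**
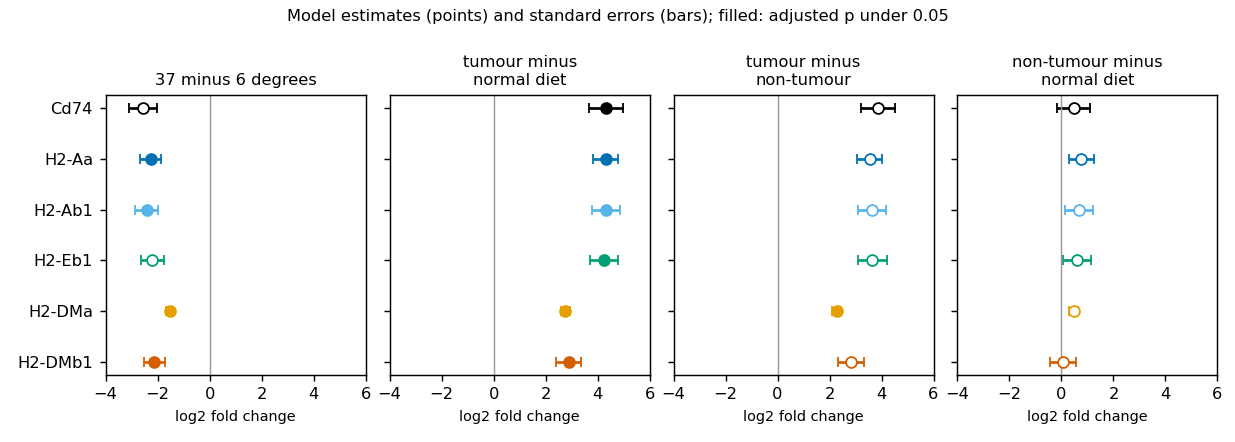
Model estimates (points) with standard errors (bars) for the 6 class II genes tested, on the log2(FPKM + 1) scale, in 4 contrasts; filled points passed adjusted p under 0.05. All 6 lie below 0 for 37 minus 6 degrees and above 2 for the tumour region against either other source, and close to 0 for the non-tumour region against normal diet.

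Macrophage and sinusoidal endothelial markers were lower at 37 degrees as well. This did not hold for every cell type. The hepatocyte marker sum was higher at 37 degrees in the tumour pair, at 88.8 FPKM against 64.7 FPKM at 6 degrees. It was lower at 37 degrees in the non-tumour pair (21.5 against 59.7 FPKM) and the normal diet pair (61.7 against 208 FPKM). Of 18 macrophage and Kupffer cell markers, all 18 were lower at 37 degrees in each pair. In the model, where 4.62% of all genes tested fell, 12 of the 17 markers tested did, with a median of -2.45. Their summed level was 1067 FPKM at 37 and 2735 FPKM at 6 degrees in tumour, 41.1 and 751 FPKM in non-tumour and 57.8 and 606 FPKM in normal diet libraries. Lyz2, the macrophage lysozyme, was at 285 and 857, 16.6 and 204, and 15.4 and 175 FPKM in the tumour, non-tumour and normal diet pairs, 37 degrees first in each. Ptprc, which encodes CD45, the antigen the sort excluded, was at 5.44 and 16.5 FPKM in tumour, 0.375 and 2.73 FPKM in non-tumour and 0.397 and 1.75 FPKM in normal diet libraries. Csf1r, the receptor for the macrophage growth factor, was at 18.8 and 70.3 FPKM in tumour, 0.479 and 20.9 FPKM in non-tumour and 1.45 and 15.4 FPKM in normal diet libraries. Macrophage markers were thus present in all 6 libraries, and the non-tumour library of 37 degrees had 3 of the 18 at 0 and the normal diet library of 37 degrees 1. The part of these markers in the class II differences was not tested.

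Where 4.62% of all genes tested fell at 37 degrees by limma, all 10 sinusoidal endothelial markers did, with a median of -3.31. Their sum was 509 and 1980 FPKM in tumour libraries of 37 and 6 degrees, 546 and 3989 FPKM in non-tumour and 66.1 and 1609 FPKM in normal diet libraries. At both temperatures it was lower in the tumour than in the non-tumour library, whereas the class II sum was higher. Against normal diet both sums were higher in tumour, the endothelial one 7.70 times at 37 degrees and 1.23 times at 6 degrees. Pecam1, which encodes the excluded antigen CD31, was at 10.7 and 53.0 FPKM in tumour, 9.99 and 90.6 FPKM in non-tumour and 0.900 and 31.4 FPKM in normal diet libraries. The 11 stellate markers had a median of 0.39, with 4 higher at 37 degrees and 0 lower by the same test. Of all 11558 genes tested, 59 were higher and 534 lower.

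Markers of B cells and dendritic cells had low sums. B cell markers, 8 of 10 listed, summed to 2.29 and 5.52 FPKM in tumour libraries of 37 and 6 degrees, 0.184 and 3.20 FPKM in non-tumour and 0.109 and 0.900 FPKM in normal diet libraries. Pax5, the B cell identity factor, was at 0 in all 6 libraries, and Cd79a, a chain of the B cell receptor complex, was between 0 and 0.867 FPKM. Flt3, the dendritic cell growth factor receptor, was between 0 and 0.147 FPKM, and the 10 dendritic markers summed to 17.6 to 35.3 FPKM. Most of that dendritic sum came from Zbtb46 and Batf3, which had different orders. Zbtb46 was at 10.5 and 16.6 FPKM in tumour libraries of 37 and 6 degrees, 14.1 and 25.4 FPKM in non-tumour and 14.2 and 29.3 FPKM in normal diet libraries. Batf3 was at 10.8 and 8.77 FPKM in tumour, 4.38 and 3.89 FPKM in non-tumour and 2.80 and 3.79 FPKM in normal diet libraries. Some scarcer dendritic markers were highest in the tumour library of 6 degrees, where Itgax was at 3.27 FPKM and Siglech at 2.38 FPKM, against 0.0101 and 0.0882 FPKM in the normal diet library of 6 degrees. Clec9a was instead highest in the non-tumour library of 6 degrees, at 1.75 FPKM against 1.09 FPKM in tumour. Ccr7 was highest in the tumour library of 37 degrees, at 0.981 FPKM against 0.418 FPKM at 6 degrees.

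The ratio of the class II sum to the macrophage marker sum varied between libraries. The sum of the 7 genes was 1.17 times the macrophage marker sum in the tumour library of 37 degrees and 0.939 times in that of 6 degrees. The ratio was 0.837 and 0.646 in the non-tumour libraries and 0.579 and 0.371 in the normal diet libraries, again with 37 degrees first. Within each source the ratio was thus higher at 37 than at 6 degrees, and at each temperature it was highest in tumour and lowest in normal diet. The whole range of the ratio was 3.15 times, whereas the class II sum itself ranged from 33.5 to 2569 FPKM. A narrow range was not particular to macrophage markers. Taken over the low B cell marker sum, the ratio ranged 3.58 times. Over the dendritic marker sum it ranged 42.2 times and over the endothelial marker sum 38.9 times. A ratio of sums leans on its most abundant genes, and with 1 library per group these differences have no error.

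**Figure D3:**
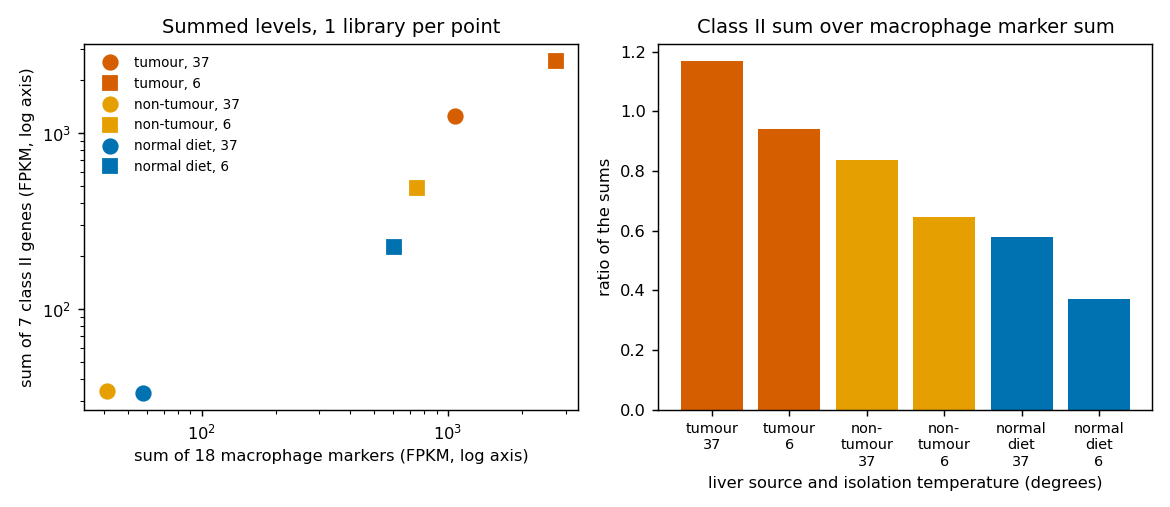
Left, the summed FPKM of the 7 class II genes against that of 18 macrophage markers, both on log axes, 1 library per point (circles 37 degrees, squares 6 degrees). Right, the ratio of the sums per library, from 1.17 in the tumour library of 37 degrees to 0.371 in the normal diet library of 6 degrees.

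The tumour region had the highest class II levels of the 3 sources. In FPKM, Cd74 was 40.9 times higher in tumour than in normal diet libraries at 37 degrees and 10.7 times at 6 degrees, H2-Ab1 35.4 and 12.4 times, H2-Aa 38.8 and 12.6 times, and H2-Eb1 42.1 and 13.1 times. H2-DMa was 14.5 and 7.38 times higher and H2-DMb1 11.2 and 9.09 times. For all 6 genes the ratio was larger at 37 degrees, where the normal diet values were lowest.

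All 6 genes tested were higher in tumour than in normal diet libraries by limma, where 6.07% of all genes tested passed in that direction. Cd74 was higher by 4.33 ± 0.65 (SE, 2 pairs, limma adjusted p = 0.0199), H2-Aa by 4.31 ± 0.49 (adjusted p = 0.0108), H2-Ab1 by 4.31 ± 0.54 (adjusted p = 0.0135) and H2-Eb1 by 4.24 ± 0.55 (adjusted p = 0.0148). H2-DMa was higher by 2.75 ± 0.17 (adjusted p = 0.00696) and H2-DMb1 by 2.88 ± 0.49 (adjusted p = 0.0274). The median of the 6 was 4.27, against 0.01 over all genes. Among macrophage markers 11 of 17 passed upwards in this contrast, with a median of 2.57, and 16 of the 18 were higher in tumour at both temperatures. Timd4 and Marco, genes of resident Kupffer cells picked out after their values were seen, were lower in tumour, with Timd4 at 0.110 and 1.08 FPKM in tumour against 0.474 and 4.52 FPKM in normal diet libraries of 37 and 6 degrees. Marco was at 0.0917 and 0.675 FPKM in tumour against 0.604 and 4.11 FPKM in normal diet libraries. Timd4 did not pass (limma adjusted p = 0.175), and Marco, with a mean under 1 FPKM, was not tested. In the non-tumour libraries of 37 and 6 degrees Timd4 was at 0 and 0.517 FPKM and Marco at 0 and 0.104 FPKM. Both genes were thus below normal diet in the non-tumour region as well. Other genes of resident Kupffer cells were higher in tumour, with Clec4f at 30.1 and 85.1 FPKM against 5.25 and 57.8 FPKM and Vsig4 at 19.9 and 57.2 FPKM against 1.91 and 27.5 FPKM in normal diet libraries of 37 and 6 degrees. Neither passed the test (limma adjusted p = 0.170 and 0.0591), whereas Cd5l, at 41.8 and 160 FPKM in tumour against 3.80 and 36.5 FPKM in normal diet libraries, did (adjusted p = 0.0396). The class II count was 1 without either normal diet library, 5 without the tumour library of 37 degrees, 5 with a pseudocount of 0.1 and 0 with no filter on low values.

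Against the non-tumour region, the tumour region was higher for all 7 genes at both temperatures. In FPKM, Cd74 was 43.6 times higher in tumour at 37 degrees and 5.25 times at 6 degrees, H2-Ab1 31.9 and 5.39 times, and H2-DMa 9.54 and 4.47 times. Of the 6 tested, 1 passed upwards, H2-DMa at 2.28 ± 0.17 (limma adjusted p = 0.0384), where 0.450% of all genes tested passed in that direction. The other estimates were larger but with larger errors: Cd74 at 3.87 ± 0.65 (adjusted p = 0.102), H2-Aa at 3.54 ± 0.49 (adjusted p = 0.0628) and H2-Ab1 at 3.64 ± 0.54 (adjusted p = 0.0734). H2-Eb1 was at 3.65 ± 0.55 (limma adjusted p = 0.0781) and H2-DMb1 at 2.82 ± 0.49 (adjusted p = 0.113). All 6 had an unadjusted p under 0.05 by limma, as did 1169 of all 11558 genes tested. After adjustment, 52 of the 11558 genes passed in this contrast. The count was 5 without the tumour library of 6 degrees and 0 without any other single library, and 0 with a pseudocount of 0.1, a mean of at least 5 FPKM or no filter on low values. Of 17 macrophage markers 4 passed upwards, with a median of 2.51, beside 3.59 for the class II genes.

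Between the non-tumour region and normal diet no class II gene passed the test. Of the 6 genes, 0 passed in either direction by limma, where 5.56% of all genes tested passed. An unadjusted p under 0.05 was reached by 1 of them, H2-DMa, and by 2503 of all 11558 genes tested. Cd74 was at 0.47 ± 0.65 (adjusted p = 0.756), H2-Aa at 0.77 ± 0.49 (adjusted p = 0.445), H2-Ab1 at 0.66 ± 0.54 (adjusted p = 0.557) and H2-DMa at 0.46 ± 0.17 (adjusted p = 0.204). H2-Eb1 was at 0.59 ± 0.55 (limma adjusted p = 0.612) and H2-DMb1 at 0.06 ± 0.49 (adjusted p = 0.965). The libraries of each temperature gave different values: at 6 degrees all 7 genes were higher in the non-tumour library, 2.03 times for Cd74 and 2.43 times for H2-Eb1, whereas at 37 degrees Cd74 was 0.938 times and H2-Aa 1.35 times the normal diet value. The normal diet libraries in this contrast are those of the tumour contrast above. The macrophage markers had a median of -0.03 in this contrast, with 0 of 17 passing and 1 at an unadjusted p under 0.05.

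The other genes of the class II locus had low levels and did not all follow the 7 genes. Of the 5 listed, 2 were lower at 37 degrees in all 3 pairs. H2-DMb2, given above, was the most abundant, at up to 2.33 FPKM in the tumour library of 6 degrees. H2-Oa and H2-Ob, whose products form H2-DO, the inhibitor of H2-DM, reached at most 0.771 and 0.331 FPKM. H2-Oa was at 0 and 0.771 FPKM and H2-Ob at 0.331 and 0.299 FPKM in the tumour libraries of 37 and 6 degrees. H2-Eb2 was at 0.0145 and 0.0730 FPKM in the tumour and normal diet libraries of 6 degrees and at 0 in the other 4. Among these 5 genes, 0 reached the mean of 1 FPKM needed for the test.

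Of the 9 endosomal processing genes, 4 fell at 37 degrees by limma, where 4.62% of all genes tested fell. In tumour against normal diet libraries 8 were higher, where 6.07% of all genes tested were higher. Ctss, the protease that makes the last cut of the invariant chain in macrophages and dendritic cells, was at 91.7 and 280 FPKM in tumour libraries of 37 and 6 degrees, 3.58 and 60.4 FPKM in non-tumour and 3.70 and 44.0 FPKM in normal diet libraries. It fell by 2.87 ± 0.40 at 37 degrees (limma adjusted p = 0.0216) and was 3.47 ± 0.49 higher in tumour than in normal diet libraries (adjusted p = 0.0178). Its order of libraries was close to that of the class II genes.

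Ctsh, an aminopeptidase of lysosomes, was at 26.2 and 77.2 FPKM in tumour, 2.72 and 26.1 FPKM in non-tumour and 5.15 and 17.8 FPKM in normal diet libraries. It fell by 2.0 ± 0.28 at 37 degrees (limma adjusted p = 0.0211) and was 2.1 ± 0.34 higher in tumour than in normal diet libraries (adjusted p = 0.0236). At 37 degrees Ctsb fell by 0.71 ± 0.10 (limma adjusted p = 0.0235) and Lgmn, the asparagine-specific protease, by 0.45 ± 0.08 (adjusted p = 0.0365). Ctsl, the protease that cuts the invariant chain in thymic epithelium, was between 374 and 702 FPKM in the 6 libraries. In tumour against normal diet Ctsl was higher by 0.53 ± 0.11, Ctsb by 0.90 ± 0.13, Ctsd by 0.59 ± 0.12 and Lgmn by 0.64 ± 0.09 (limma adjusted p = 0.0459, 0.0169, 0.0418 and 0.0181). Cst3, an inhibitor of such proteases, was higher by 0.81 ± 0.12 and Ifi30, a lysosomal thiol reductase, by 0.71 ± 0.14 (limma adjusted p = 0.0183 and 0.0422).

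Non-tumour libraries were higher than normal diet libraries for Ctsl, Lgmn and Cst3, by 0.68 ± 0.11, 0.60 ± 0.09 and 0.63 ± 0.12 (limma adjusted p = 0.0321, 0.0269 and 0.0460). Ifi30 was the 1 processing gene of 9 that passed in tumour against non-tumour, at 1.31 ± 0.14 (limma adjusted p = 0.0436). Over the 9 processing genes the median was -0.45 for temperature and 0.71 for tumour against normal diet, beside class II medians of -2.24 and 4.27. The lists of other pathway genes held 9 processing, 6 promoter factor, 2 turnover, 7 interferon route and 4 co-stimulation genes that were tested. Of all genes tested, 4.62% fell at 37 degrees and 6.07% were higher in tumour than in normal diet libraries. For non-tumour against normal diet 5.56% passed in either direction, and 0.450% were higher in tumour than in non-tumour. Counted over the 6 lists, 6 genes passed for temperature, all lower, and 10 for tumour against normal diet, all higher. For temperature that count was 3 without either tumour library, 2 without the normal diet library of 6 degrees and 1 without any of the other 3. For tumour against normal diet it was 2 without either normal diet library, 5 without the tumour library of 37 degrees and 8 without any of the other 3, and with no filter on low values it was 0 in both contrasts. In non-tumour against normal diet 3 passed, and 0 did without a non-tumour or a normal diet library. In tumour against non-tumour 2 passed, 6 did without the tumour library of 6 degrees, and 0 did without any other single library.

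Of the factors that bind the promoter module, none passed. Of the 6 tested (Rfx5, Rfxap, Rfxank, Creb1, Nfyb and Nfyc), 0 passed in any of the 4 contrasts by limma, and 0 had an unadjusted p under 0.05. Of all 11558 genes tested, 593 passed for temperature and 1081 for tumour against normal diet. For non-tumour against normal diet 643 passed, and for tumour against non-tumour 52. An unadjusted p under 0.05 was reached by 2379, 3003, 2503 and 1169 genes in these contrasts. With 6 genes, a count of 0 is thus little evidence of no change. Their median was 0.13 for temperature and -0.16 for tumour against normal diet. Rfx5 was at 5.11 and 4.20 FPKM in tumour libraries of 37 and 6 degrees, 5.67 and 4.87 FPKM in non-tumour and 5.38 and 5.27 FPKM in normal diet libraries. Nfya had a mean under 1 FPKM and was not tested.

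In the interferon gamma route, Ifng itself was listed at 0 in all 6 libraries. Of 7 genes tested, 1, Jak1, fell at 37 degrees, by 0.51 ± 0.09 (limma adjusted p = 0.0365), where 4.62% of all genes tested fell. Another, Ifngr2, a receptor chain, was higher in tumour than in normal diet libraries, by 0.50 ± 0.10 (adjusted p = 0.0412). In that direction 6.07% of all genes tested passed. Ifngr2 was at 0.40 ± 0.10 for non-tumour against normal diet (limma adjusted p = 0.0896). For tumour against non-tumour it was at 0.10 ± 0.10 (adjusted p = 0.752). Irf1, an interferon-induced activator of the Ciita promoter that was singled out after its values were seen, was at 808 and 93.6 FPKM in the tumour libraries of 37 and 6 degrees. In the other libraries it was at 114 and 108 FPKM (non-tumour) and at 164 and 113 FPKM (normal diet). The 1 high value was thus in the tumour library of 37 degrees. Socs1, of the same list, was at 130 FPKM in that library and between 4.94 and 7.68 FPKM in the others. A relation of Irf1 or Socs1 to Ciita was not tested.

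Of 4 co-stimulation genes tested, 1, Cd86, the ligand of CD28 on T cells, passed in 3 contrasts. Of all genes tested, 4.62% fell at 37 degrees, 6.07% were higher in tumour than in normal diet and 0.450% than in non-tumour. It was at 4.24 and 9.25 FPKM in tumour libraries of 37 and 6 degrees, 0.0686 and 1.63 FPKM in non-tumour and 0.200 and 2.02 FPKM in normal diet libraries. It fell by 1.20 ± 0.15 at 37 degrees (limma adjusted p = 0.0150) and was higher in tumour by 1.94 ± 0.18 against normal diet (adjusted p = 0.00746) and by 2.13 ± 0.18 against non-tumour (adjusted p = 0.0384). Of the 2 turnover genes tested, 0 passed in any contrast by limma, and 1, Cd83, had an unadjusted p under 0.05 in each contrast of tumour with another source. Of all 11558 genes tested, 3003 had such a p against normal diet and 1169 against non-tumour. Cd83, which protects surface class II from breakdown and was singled out after its values were seen, was at 34.1 and 14.1 FPKM in tumour, 3.03 and 4.39 FPKM in non-tumour and 4.08 and 7.44 FPKM in normal diet libraries. Unlike the class II genes it was higher at 37 than at 6 degrees in the tumour pair.

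**Figure D4:**
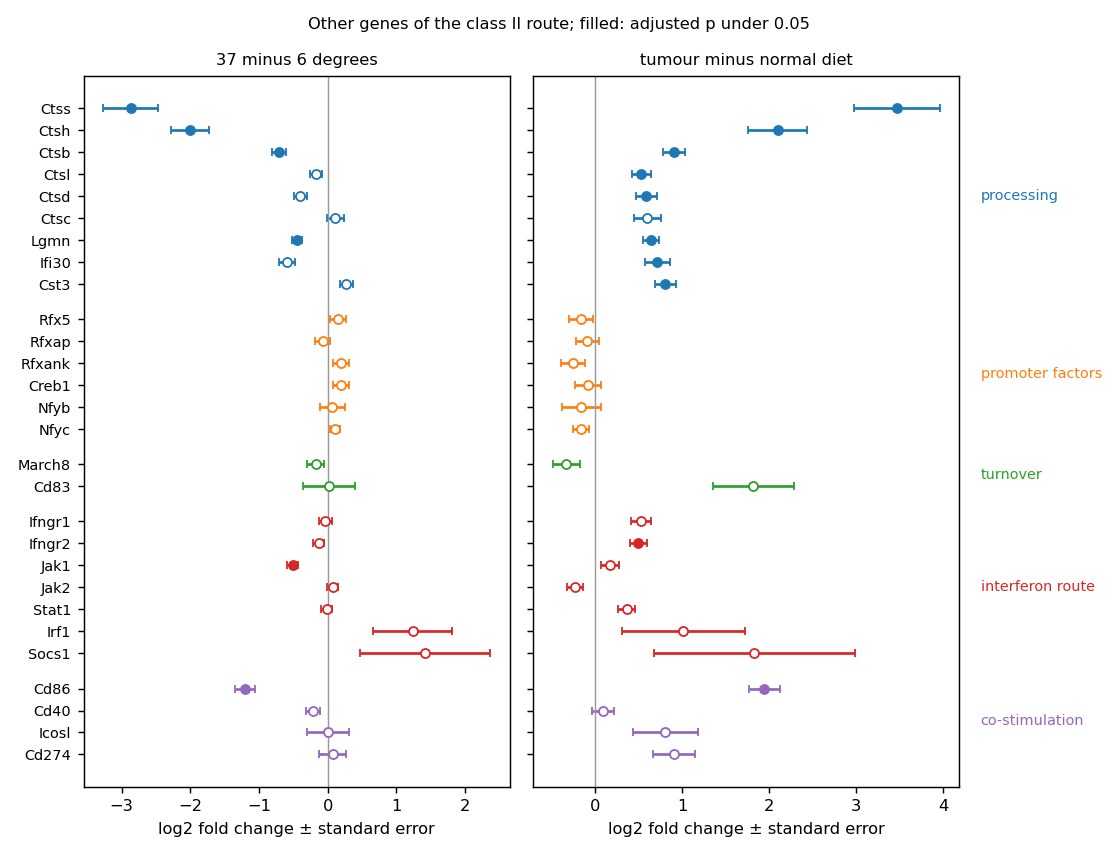
Model estimates with standard errors, on the log2(FPKM + 1) scale, for the other tested genes of the class II route, grouped by role; filled points passed adjusted p under 0.05. Ctss and Ctsh lie farthest from 0 among processing genes in both contrasts, and the 6 promoter factors lie near 0.

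The tested genes whose pattern over the 6 libraries was closest to Cd74 were listed next, by the mean absolute difference of centred log2(FPKM + 1) values. H2-Ab1 was nearest at 0.13, followed by H2-Aa at 0.20, H2-Eb1 at 0.21 and Ctss at 0.33, where the median over all tested genes was 2.1. The next were C1qb and Tyrobp at 0.37, Ly86 at 0.37, C1qa at 0.39, Fcer1g at 0.39 and C1qc at 0.44. C1qa, C1qb and C1qc encode the chains of complement C1q, and Tyrobp and Fcer1g encode signalling adaptors of myeloid receptors. C1qa, C1qb, C1qc and Tyrobp are in the macrophage list used above. Of the marker lists, 17 of 18 macrophage, 2 of 10 dendritic and 0 of 8 listed B cell genes were tested and could appear. Since this scale understates the change of low genes, scarce genes with the same pattern lie farther from Cd74. The list thus favours abundant genes, and which cell type carried the class II transcripts was not tested.

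Measured from H2-Ab1, the nearest were H2-Aa at 0.08, H2-Eb1 at 0.11 and Cd74 at 0.13, then Ctss at 0.30, Ly86 at 0.31, Fcer1g at 0.36 and Lyz2 at 0.38. C1qb and Tyrobp, at 0.41 each, and Cd52 at 0.42 completed the first 10. H2-DMb1 came at place 17 from Cd74 and H2-DMa at place 45, with Csf1r at place 20 and Ptprc at place 79. Cd74 stood at 2.18 and 1.41 times Lyz2 in the tumour libraries of 37 and 6 degrees, 0.857 and 1.13 times in non-tumour and 0.988 and 0.646 times in normal diet libraries.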

How the data were processed

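Gene expression of sorted mouse hepatic stellate cells was measured by RNA sequencing in 6 libraries, 1 per combination of liver source and isolation temperature. The deposited values are FPKM, made by the authors with TopHat2 2.1.1, Bowtie2 and Cuffdiff 2.2.1 on mm10, per the submitters' processing notes. How Cuffdiff scaled the libraries, which annotation it used and whether it used strand is not given in the sources used here. Gene positions come from GENCODE vM21 (GRCm38).

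No symbol was entered more than once in the values used. A mean FPKM of 1 or more was required, and 1316 small RNA symbols were left out. The test was limma 3.58.1 (R 4.3.3) on log2(FPKM + 1), with liver source and temperature as additive terms and an intensity trend. This left 2 residual degrees of freedom (5.37 with the prior), and p-values were adjusted by Benjamini-Hochberg over 11558 genes. The fit was tested on simulated data. Depth was estimated from the FPKM steps of 266 genes with a single annotated transcript, with 150 bases taken off each transcript's length, so depths and fragment numbers are approximate. FPKM are no counts, so no count model was used.

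The members, gene lists and markers were chosen with earlier results of these data known. All 7 members are named, with pathway genes that passed in a contrast, all listed genes of the class II locus, 7 chosen cell type markers, and the 10 genes nearest in pattern to Cd74 and to H2-Ab1. Zbtb46, Batf3, Itgax, Siglech, Xcr1, Cd209a, Clec10a, Clec9a, Ccr7, Timd4, Marco, Clec4f, Vsig4, Cd5l, Pax5, Rfx5, Irf1, Socs1 and Cd83 were added after their values were seen. Alternatives were other pseudocounts, filters, scalings, models and leaving out each library.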

Additional observations from a re-analysis of the deposited data

Results flagged for a closer look

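In the genes named in the text (20 examined, 6 comparisons each), an effect that had opposite signs in different groups was singled out. Each group had 1 library, so none of these differences was tested, and small effects of opposite sign are included. Values are differences between effects on the log2(FPKM + 1) scale, the effect at 37 minus that at 6 degrees unless stated otherwise. For non-tumour minus normal diet, the effects at 37 degrees were lower than those at 6 degrees. The difference was -1.10 for Cd74 (-0.09 and 1.02 at 37 and 6 degrees), -1.27 for H2-Eb1 (-0.04 and 1.22) and -2.0 for H2-DMb1 (-0.94 and 1.06). The H2-DMb1 value at 37 degrees rests on at most 5.66 fragments in the non-tumour library. For the same contrast Ctss gave -0.49 and Ctsh -1.25.

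For tumour minus non-tumour, Ctsl gave 0.32, Ctsd -0.39 and Lgmn 0.19, all with an effect under 0.4 in size at each temperature. Irf1 gave 2.56 for tumour minus normal diet, with effects of 2.29 at 37 and -0.27 at 6 degrees. For tumour minus non-tumour Irf1 gave 3.02, with effects of 2.81 and -0.20. Cd83 differed in its effect of 37 minus 6 degrees, which was 1.21 in the tumour pair, -0.42 in the non-tumour pair and -0.73 in the normal diet pair. The tumour pair thus exceeded the non-tumour pair by 1.63 and the normal diet pair by 1.95.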

How the results depend on the processing

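Counts of genes past adjusted p 0.05 (limma) are given for class II members and then other pathway genes. For 37 against 6 degrees they were 4 and 6, and became 1 and 5 with a pseudocount of 0.1 or a mean of at least 5 FPKM, 1 and 3 with no intensity trend, and 0 and 0 with no filter or no source term. Leaving out 1 library gave 0 to 5 and 1 to 3. For tumour against normal diet they were 6 and 10, and became 5 and 7 with a pseudocount of 0.1, 0 and 0 with no filter, 6 and 6 with no intensity trend, and 6 and 4 with quantile normalization. Leaving out 1 library gave 1 to 6 and 2 to 8. For tumour against non-tumour they were 1 and 2, and became 0 and 0 with a pseudocount of 0.1, a mean of at least 5 FPKM or no filter, and 1 and 1 with quantile normalization or no intensity trend. Leaving out 1 library gave 0 to 5 and 0 to 6. For non-tumour against normal diet the member count was 0 under every setting run. That of other pathway genes was 3, and 2 with a pseudocount of 0.1 or median-ratio rescaling, 1 with quantile normalization, 0 with no filter or no trend, and 0 to 3 without 1 library. With no filter 23030 genes were tested with fewer prior degrees of freedom, and 0 genes of any kind passed in any contrast, with 2686 at an unadjusted p under 0.05 for temperature. For single members, 221 values kept direction and side of the threshold, 58 no longer passed, 9 newly passed and 6 changed sign. The sign changes were all in non-tumour against normal diet: H2-DMb1 at -0.46 with a pseudocount of 0.1 and, without 1 library, Cd74 from -0.55 to 1.48, H2-Ab1 from -0.21 to 1.54, H2-Eb1 from -0.35 to 1.53 and H2-DMb1 from -0.89 to 1.02. The lowest of each was without the non-tumour library of 6 degrees and the highest without that of 37 degrees, and H2-DMb1 was also negative, at -0.48, without the normal diet library of 6 degrees. Other causes were not tested. Ciita, tested with no filter, had adjusted p = 0.444 for temperature and 0.308 for tumour against normal diet. Liver source, a term of the model, pairs the libraries of 37 and 6 degrees, and the labels carry no replicate numbers for another block. Depth limits Ciita at 37 degrees in the non-tumour and normal diet libraries and H2-DMb1 in the non-tumour library of 37 degrees.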
